A study of Mus musculus with 6 samples.

Results

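The 43 genes described here encode the proton pump of acidic organelles, the vacuolar ATPase (V-ATPase), and the membrane proteins, hydrolases and cofactors of the lysosome. They were taken as a list of symbols from 21938 protein-coding genes of the GENCODE annotation of GRCm38, the assembly known as mm10. The rule used no measured value, but the list was chosen with earlier results of these data known. H3K27ac, the acetylation of histone H3 at lysine 27 found at active promoters and enhancers, was profiled by ChIP seq in B16 F10 cells, an established mouse melanoma line. Cultures seeded at a density of 100 cells per cm2 were collected on day 5, and low-pigment (LP) and high-pigment (HP) cells of the same culture were separated by the side scatter of a flow cytometer. Each population had 2 replicates, so the groups differ in a sort gate and come from 1 cell line without a treatment or an altered gene, and 2 IgG libraries of unsorted cells served only as the authors' controls for peak calling. A mark present in more of the sorted cells and a mark that is higher in each cell cannot be told apart in such libraries.

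Lysosomes digest proteins, glycans and lipids at an acidic pH, which the V-ATPase maintains by coupling ATP hydrolysis in its cytosolic V1 sector to proton transport through its membrane V0 sector. Melanosomes, the pigment granules of melanocytes, are related organelles: they arise from endosomes, use the same pump and share several membrane proteins with lysosomes. The transcription factors TFEB, TFE3 and MITF belong to 1 family and bind E-boxes, and many lysosomal genes carry a palindromic E-box of this family, the CLEAR element, near their transcription start site (TSS).

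The core of the CLEAR element was looked for in the promoter sequences of the genes, since this element links the list to that family. RefSeq promoter windows on GRCm38.p6, with 250 bases before and 50 bases after each start, were found for 36 of the 43 genes, which had 42 windows. Windows for Atp6v1h, Atp6v1b2, Atp6v1c1, Atp6v1g1, Npc1, Asah1 and Ctsb were not used here. The core TCACGTGA, which reads the same on both strands, was present in 8 genes, and their sequences are shown 5′ to 3′ on the strand of the gene, with the core in capitals and 30 bases on either side where the window reached that far.
Ctsa (chr2:164833730-164833814, plus strand): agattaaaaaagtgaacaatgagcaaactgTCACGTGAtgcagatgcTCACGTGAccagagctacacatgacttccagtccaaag
Ctsd (chr7:142387889-142387956, minus strand): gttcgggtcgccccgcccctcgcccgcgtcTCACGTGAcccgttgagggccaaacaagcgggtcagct
Mcoln1 (chr8:3500443-3500510, plus strand): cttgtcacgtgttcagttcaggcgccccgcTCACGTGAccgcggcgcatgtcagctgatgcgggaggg
Atp6v0d1 (chr8:105566031-105566098, minus strand): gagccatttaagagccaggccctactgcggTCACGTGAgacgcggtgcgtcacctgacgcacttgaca
Atp6v1a (chr16:44139354-44139421, minus strand): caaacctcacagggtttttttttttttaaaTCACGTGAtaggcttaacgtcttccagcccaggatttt
Clcn7 (chr17:25133367-25133434, plus strand): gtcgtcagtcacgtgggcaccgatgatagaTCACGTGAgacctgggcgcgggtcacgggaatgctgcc
Atp6v0e (chr17:26676368-26676435, plus strand): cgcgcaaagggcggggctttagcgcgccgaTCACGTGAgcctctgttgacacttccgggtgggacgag
Gla (chrX:134601163-134601255, minus strand): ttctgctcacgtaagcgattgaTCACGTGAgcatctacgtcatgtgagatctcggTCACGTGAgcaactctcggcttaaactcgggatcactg
Ctsa and Gla each held the core in 2 places. Of the 36 genes, 8 (22.2%) had a match, compared with 304 of 27025 genes (1.12%) over all RefSeq windows and 195 of 8219 (2.37%) among genes with a peak in all 4 lists. The share of single windows with a match was 0.974% over all 32851 windows. The shorter E-box CACGTG, which lies inside the core, was present in 15 of the 36 genes (41.7%). It was present in 8.09% of all genes with a window and in 12.5% of the 8219 genes with a peak in all 4 lists. The related form TCATGTG was found on either strand in 8 genes (22.2%, against 4.31%), and CAGCTG, an E-box of other factors, in 8 genes (22.2%, against 18.3%). The CLEAR element was described from promoters of lysosomal genes, so its frequency in this list is no independent observation. Each of the 8 genes with the core had a window at least partly under a peak region shared by all 4 lists, as did 32 of the 36 genes. In Gla this region, chrX:134601208-134601758, covered part of the window and left out the second core. The H3K27ac values of the 8 genes are given with their groups.

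**Figure D1:**
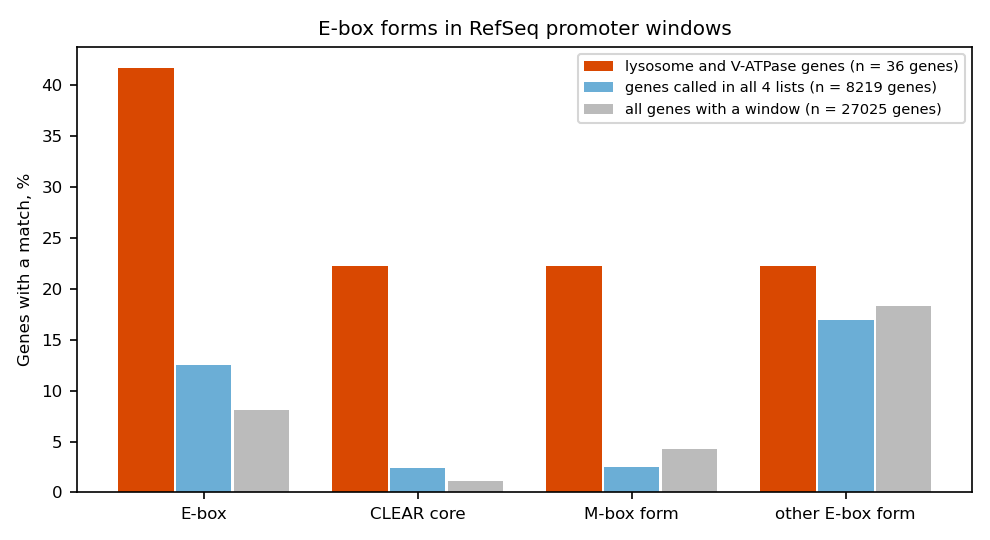
Share of genes (%) with a match to 4 E-box forms in RefSeq promoter windows, for the 36 lysosome and V-ATPase genes with a window, the 8219 genes with a peak in all 4 lists and all 27025 genes. The bars of the listed genes stand at 41.7% for the E-box CACGTG and 22.2% for each other form, above the other bars in the first 3 forms and close to them in the last.

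H3K27ac was measured as the pileup at the summit of the authors' peaks, a count of the fragments lying over that base. The LP libraries held 11467942 and 15353176 fragments and the HP libraries 11483830 and 14254904, and pileups were scaled by these totals to a depth of 1000000 fragments (scaled pileup). The value of a gene in a library was the highest scaled pileup of the peaks overlapping the 3 kb on either side of any of its TSS. Of all genes, 10391 had such a peak in all 4 lists. Their log2 values were tested with limma, and p-values were adjusted by the Benjamini-Hochberg method across the 10391 promoters. The median scaled pileup over these promoters was 3.23 and 3.19 in LP replicates 1 and 2 and 4.88 and 8.21 in HP replicates 1 and 2, so HP replicate 2 stood apart from the other libraries. Over all promoters HP exceeded LP by a median of 0.90 on the log2 scale, with 99.3% of promoters above 0, and the group medians and the ratios at the ends of the range are therefore also given after centring each library on its median. Melanocyte markers (Mitf, Sox10, Tyr, Tyrp1, Dct, Pmel and Mlana) had a promoter peak in all 4 lists in 7 of 7 cases, and their summed scaled pileup was 12.4 and 10.3 (LP) and 20.99 and 34.4 (HP). Of other cell types, 0 of 6 leukocyte markers and 0 of 3 keratinocyte markers had one in all 4 lists, with Ptprc, Adgre1, Itgam and Cd3e in no list, and of 2 endothelial markers Pecam1 did while Cdh5 had none.

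The promoter signal of lysosome and V-ATPase genes was higher in HP than in LP by an amount close to that of promoters in general, and relative to the median of each library the genes lay on either side of 0. A promoter peak was called in all 4 lists for 41 of the 43 genes. The log2 ratio of HP to LP was above 0 in each of the 41 and ranged from 0.26 to 2.32, with a median of 0.97 compared with 0.90 over all promoters. After centring, 20 genes were above 0 and 21 below, with a median of −0.0085 against −0.079 over all promoters. One gene, Lgmn, passed the adjusted threshold of 0.05 as higher in HP (1 of 41, against 0.770% of all promoters tested), and 0 genes passed as lower (against 0.00962%). Before adjustment, 15 of the 41 genes had a p under 0.05 and were higher in HP, 0 were lower, and 30.9% of all promoters were higher. Both HP values lay above both LP values in 29 of the 41 genes (70.7%), beside 73.8% of all promoters. The standard error of every ratio was 0.55 on the log2 scale, because limma estimated the same variance for all promoters. With the replicate number as a block, 27 of the 10391 promoters were called higher in place of 80, and Lgmn was among them. A TSS of another protein-coding gene lay in the window of 15 of the 43 genes.

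**Figure D2:**
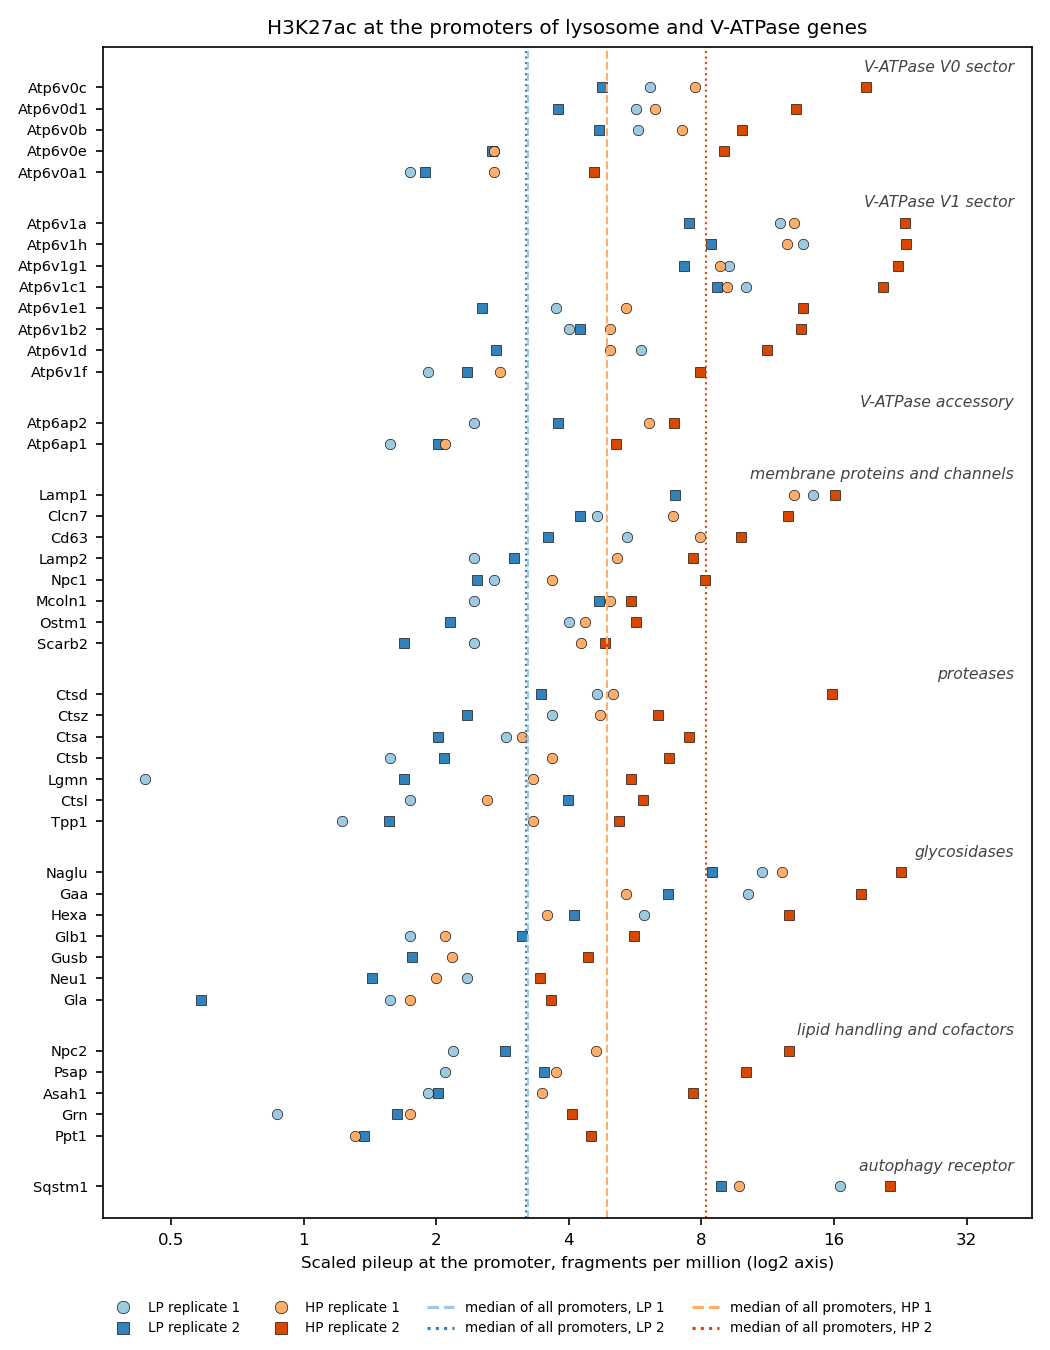
Scaled pileup (fragments per 1000000, log2 axis) at the promoter of each gene in the 4 libraries, grouped by role, with LP in blue, HP in orange, replicate 1 as circles and replicate 2 as squares, and dashed or dotted lines at each library's median over all promoters. HP replicate 2 is the highest library for each of the 43 genes, and in 12 of the 41 genes called in all lists the HP values overlap those of LP. After centring each library on its median, 21 of the 41 ratios of HP to LP lie below 0.

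**Figure D3:**
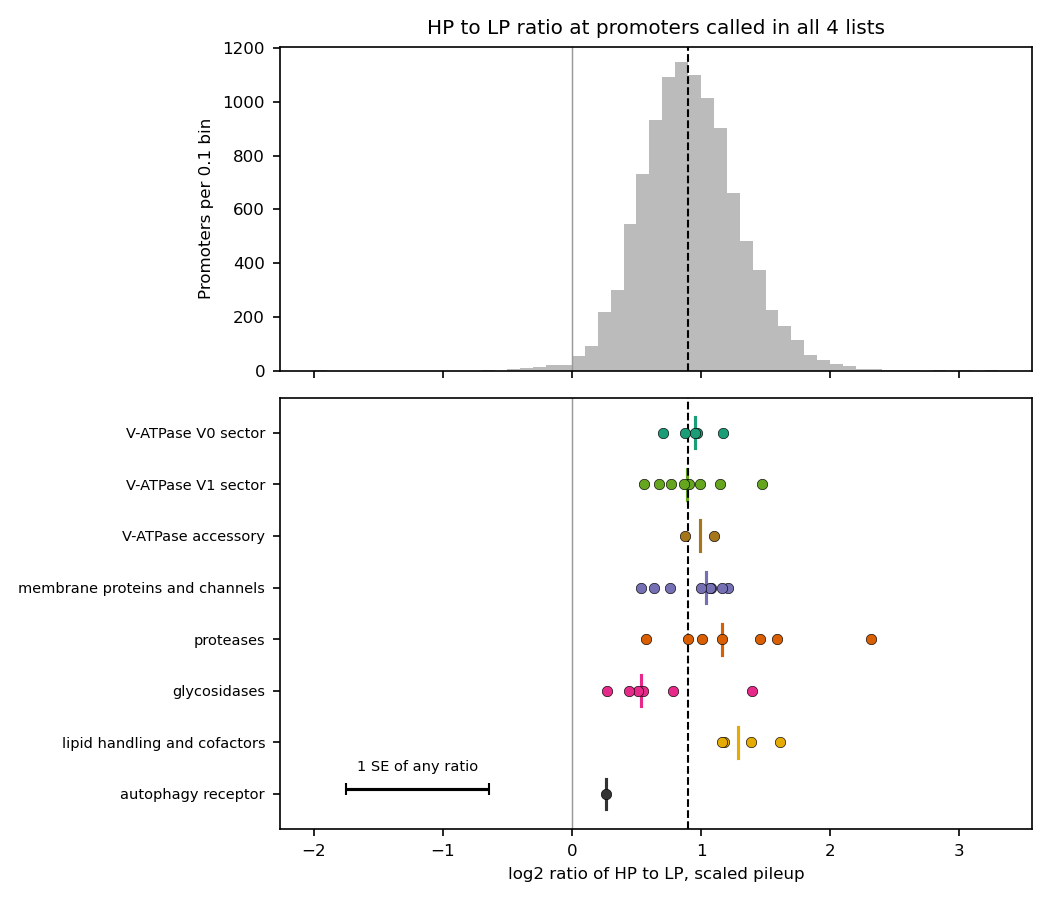
Log2 ratio of HP to LP for all 10391 promoters (top, count per bin of 0.1) and for the 41 genes by role (bottom, 1 point per gene and a bar at the median), with a dashed line at the median of all promoters. Role medians run from 0.26 for the single autophagy receptor to 1.29 for lipid handling, and all points lie above 0, while relative to the median of each library 21 of the 41 lie below 0.

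The V0 sector forms the proton channel in the membrane. Its 5 subunit genes had a median log2 ratio of 0.95, or −0.028 after centring. Of the 5, 0 passed the adjusted threshold (beside 0.770% of all promoters). In limma 1 of 5 had a p under 0.05 before adjustment (beside 30.9%). Atp6v0c, which encodes the proteolipid of the rotating ring, had LP values of 6.10 and 4.75 and HP values of 7.75 and 18.9, a log2 ratio of 1.17. The other ring gene Atp6v0b had LP values of 5.76 and 4.69 and HP values of 7.23 and 9.89 (0.70). Atp6v0d1, which joins the ring to the central stalk, had LP values of 5.67 and 3.78 and HP values of 6.27 and 13.1. In these 3 genes both HP libraries lay above both LP libraries, as at 73.8% of all promoters. Their log2 ratios were 0.34, 0.33 and 0.15 in replicate 1 and 1.99, 1.08 and 1.80 in replicate 2. Atp6v0a1, the large subunit beside the ring, had LP values of 1.74 and 1.89 and HP values of 2.70 and 4.56. The small subunit gene Atp6v0e had LP values of 2.70 and 2.67 and HP values of 2.70 and 8.98, so that its higher value in HP came from replicate 2. Atp6v0d1 and Atp6v0e carry the CLEAR core shown above.

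The V1 sector, which hydrolyses ATP in the cytosol, held the 3 most highly marked genes of the pump. Its 8 genes had a median scaled pileup of 7.54 and 5.76 in the LP libraries, at percentiles 84.2 and 84.9 of all promoters, and of 7.10 and 17.2 in the HP libraries, at percentiles 74.6 and 91.3. The median log2 ratio was 0.89, or −0.091 after centring, with 0 of 8 past the adjusted threshold (beside 0.770% of all promoters). In limma 2 of 8 had a p under 0.05 before adjustment (beside 30.9%). Atp6v1h, a regulatory subunit, had the highest mean of the 41 genes, with LP values of 13.6 and 8.40 and HP values of 12.5 and 23.3. The catalytic subunit gene Atp6v1a, which carries the CLEAR core, was the third, with LP values of 12.03 and 7.49 and HP values of 13.0 and 23.2, a log2 ratio of 0.87 that became −0.11 after centring. Its highest peak had its summit upstream of the TSS in all 4 lists, and a TSS of Naa50 lies in the same window. Atp6v1c1, which ties the stator to V1, had LP values of 10.1 and 8.66 and HP values of 9.14 and 20.7. The peripheral stalk gene Atp6v1g1 had LP values of 9.24 and 7.30 and HP values of 8.80 and 22.3. In Atp6v1h, Atp6v1c1 and Atp6v1g1 the LP and HP values overlapped, because HP replicate 1 was below LP replicate 1. The other stalk gene, Atp6v1e1, had the highest log2 ratio of the 15 listed pump genes (1.47, adjusted p = 0.11 in limma, and 0.49 after centring), with LP values of 3.75 and 2.54 and HP values of 5.40 and 13.6. Atp6v1b2, the non-catalytic partner of Atp6v1a, had LP values of 4.01 and 4.23 and HP values of 4.96 and 13.5. The rotor gene Atp6v1d had LP values of 5.84 and 2.74 and HP values of 4.96 and 11.3, and its summit lay upstream of its TSS in all 4 lists, in a window shared with a TSS of Eif2s1. The rotor gene Atp6v1f was the least marked of the sector, with LP values of 1.92 and 2.34 and HP values of 2.79 and 7.93. Both HP libraries lay above both LP libraries in Atp6v1e1, Atp6v1b2 and Atp6v1f, while the groups overlapped in Atp6v1d. The pump also has 2 accessory proteins. Atp6ap2, also known as the prorenin receptor, had LP values of 2.44 and 3.78 and HP values of 6.10 and 6.94, and Atp6ap1 had LP values of 1.57 and 2.02 and HP values of 2.09 and 5.12. Their log2 ratios were 1.10 and 0.88, or 0.12 and −0.10 after centring, and neither passed the adjusted threshold.

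Genes of lysosomal membrane proteins and channels had a median log2 ratio of 1.04, or 0.058 after centring. Of the 8, 0 passed the adjusted threshold (beside 0.770% of all promoters). In limma 2 of 8 had a p under 0.05 before adjustment (beside 30.9%). Lamp1 and Lamp2 encode the most abundant glycoproteins of the lysosomal membrane. Lamp1 had LP values of 14.3 and 6.97 and HP values of 13.0 and 16.1, a log2 ratio of 0.53 with overlapping groups, and −0.45 after centring. Lamp2 had LP values of 2.44 and 2.996 and HP values of 5.14 and 7.65, a ratio of 1.21 with no overlap. Cd63, a tetraspanin that melanosomes share with late endosomes, had LP values of 5.41 and 3.58 and HP values of 7.92 and 9.82. Scarb2, the receptor that delivers glucocerebrosidase to lysosomes, had LP values of 2.44 and 1.69 and HP values of 4.27 and 4.84, the HP values lying close together. In both genes each HP library was above each LP library. The cholesterol exporter Npc1 had LP values of 2.70 and 2.48 and HP values of 3.66 and 8.14. The chloride-proton exchanger gene Clcn7 had LP values of 4.62 and 4.23 and HP values of 6.88 and 12.6. Its partner subunit Ostm1 had LP values of 4.01 and 2.15 and HP values of 4.35 and 5.68. The calcium channel gene Mcoln1 was 1 of 4 genes with a larger ratio in replicate 1 than in replicate 2, with LP values of 2.44 and 4.69 and HP values of 4.96 and 5.54. In these 4 genes, too, both HP values lay above both LP values, as they did at 73.8% of all promoters. Clcn7 and Mcoln1 carry the CLEAR core.

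Proteases included the only gene past the adjusted threshold. The group of 7 had a median log2 ratio of 1.16, or 0.18 after centring. In limma 4 of 7 had a p under 0.05 before adjustment, beside 30.9% of all promoters. Lgmn (chr12:102394084-102439813, minus strand) encodes legumain, an asparaginyl endopeptidase that also matures cathepsins. It had LP values of 0.436 and 1.69 and HP values of 3.31 and 5.54, and its log2 ratio was 2.32 (standard error 0.55, adjusted p = 0.0151 in limma, n = 2 per group), at percentile 99.8 of all promoters. After centring it was 1.34 (adjusted p = 0.54 in limma). The LP replicate 1 value came from another place than the other values. It rested on 5 fragments at chr12:102423664-102423837, beside an internal TSS, and this peak was 15385 bases away from the promoter region that the other lists called. That region, chr12:102439223-102440134, had 26 fragments in LP replicate 2, 38 in HP replicate 1 and 79 in HP replicate 2, and no peak in LP replicate 1. Without LP replicate 1 the ratio was 1.34, with an adjusted p of 0.46 in a limma fit that took the spread from the 2 HP libraries, and over the alternatives tried the adjusted p ranged from 0.000103 to 1.00. The promoter region covers the whole RefSeq window of the outermost TSS, shown here because Lgmn was the only gene called, with no capitals because no motif searched was found in it.
Lgmn (chr12:102439679-102439978, minus strand): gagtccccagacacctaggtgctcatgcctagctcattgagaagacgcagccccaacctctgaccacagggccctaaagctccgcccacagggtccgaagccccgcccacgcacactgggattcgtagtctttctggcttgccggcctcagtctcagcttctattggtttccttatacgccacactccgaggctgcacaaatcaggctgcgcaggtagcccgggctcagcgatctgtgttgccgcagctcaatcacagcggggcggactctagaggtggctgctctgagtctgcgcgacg
The other RefSeq window of Lgmn, chr12:102439043-102439342, held 1 CACGTG and lay under the region over 120 of its 300 bases.

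Among the other proteases, Tpp1 and Ctsb had the highest ratios. Tpp1, a tripeptidyl peptidase, had LP values of 1.22 and 1.56 and HP values of 3.31 and 5.19, a log2 ratio of 1.59 (adjusted p = 0.092 in limma, and 0.61 after centring). The cysteine protease gene Ctsb had LP values of 1.57 and 2.08 and HP values of 3.66 and 6.73 (1.46, adjusted p = 0.11 in limma, and 0.48 after centring). In both genes each HP library exceeded each LP library, and the replicate ratios were of similar size (1.44 and 1.73 for Tpp1, 1.22 and 1.69 for Ctsb). Ctsd, the aspartic protease cathepsin D, was the most highly marked of the group, with LP values of 4.62 and 3.45 and HP values of 5.05 and 15.8. Its ratio was 0.13 in replicate 1 and 2.19 in replicate 2. Ctsa, the carboxypeptidase that protects neuraminidase and beta-galactosidase, had LP values of 2.88 and 2.02 and HP values of 3.13 and 7.51. Ctsz, another carboxypeptidase, had LP values of 3.66 and 2.34 and HP values of 4.70 and 6.38. Ctsl, a cysteine protease, had LP values of 1.74 and 3.97 and HP values of 2.61 and 5.89, with overlapping groups. Ctsa and Ctsd carry the CLEAR core.

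Glycosidases had the lowest ratios of any group with more than 1 gene. Over the 6 of 7 with a peak in all lists the median log2 ratio was 0.53, or −0.45 after centring. Of these, 0 passed the adjusted threshold (beside 0.770% of all promoters). In limma 1 had a p under 0.05 before adjustment (beside 30.9%). The LP and HP values overlapped in 4 of the 6, while both HP values lay above both LP values at 73.8% of all promoters. Gaa, the acid alpha-glucosidase of glycogen breakdown, had LP values of 10.2 and 6.71 and HP values of 5.40 and 18.5, a log2 ratio of −0.92 in replicate 1 and 1.46 in replicate 2. Hexa, a subunit of beta-hexosaminidase, had LP values of 5.93 and 4.10 and HP values of 3.57 and 12.6, again with opposite signs (−0.73 and 1.62). Neu1, the lysosomal sialidase, had LP values of 2.35 and 1.43 and HP values of 2.00 and 3.44. For these 3 genes HP replicate 1 was no higher than LP replicate 1, and HP replicate 2 was the highest library. Glb1, the beta-galactosidase also used as a senescence marker, had LP values of 1.74 and 3.13 and HP values of 2.09 and 5.61. Naglu, which cleaves heparan sulfate, was the most highly marked glycosidase gene, with LP values of 11.0 and 8.47 and HP values of 12.2 and 22.7. Gla, the alpha-galactosidase, had the lowest mean of the 41 genes, with LP values of 1.57 and 0.586 and HP values of 1.74 and 3.65, and its log2 ratio of 1.39 (adjusted p = 0.12 in limma, and 0.41 after centring) was 0.15 in replicate 1 and 2.64 in replicate 2. Its summit lay upstream of its TSS in all 4 lists, with a TSS of Hnrnph2 in the same window, and its promoter sequence holds the CLEAR core in 2 places. Gusb, the beta-glucuronidase, had no promoter peak in LP replicate 1 and 1.76 in LP replicate 2, with 2.18 and 4.42 in HP.

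Genes of lipid handling and cofactors had the highest median, 1.29, or 0.31 after centring. Each of the 4 with a peak in all lists had a p under 0.05 in limma before adjustment, as 30.9% of all promoters did. Of the 4, 0 passed the adjusted threshold (beside 0.770%). Npc2, which hands cholesterol to Npc1, had LP values of 2.18 and 2.87 and HP values of 4.62 and 12.6, a log2 ratio of 1.61 (adjusted p = 0.090 in limma, and 0.63 after centring). It shares its window with a TSS of Isca2, so that its value cannot be assigned to 1 of these genes. Asah1, the acid ceramidase, had LP values of 1.92 and 2.02 and HP values of 3.48 and 7.65, a log2 ratio of 1.39 (0.41 after centring). The saposin precursor gene Psap had LP values of 2.09 and 3.52 and HP values of 3.74 and 10.1. Grn, the progranulin gene, was among the 3 least marked of the 41, with LP values of 0.872 and 1.63 and HP values of 1.74 and 4.07. In these 4 genes both HP libraries were above both LP libraries, as at 73.8% of all promoters. Ppt1, which removes palmitate from proteins, had no promoter peak in LP replicate 1, 1.37 in LP replicate 2 and 1.31 and 4.49 in HP, so its HP replicate 1 value was not above that of LP. The autophagy receptor gene Sqstm1 had the lowest ratio of all, 0.26 (−0.72 after centring), from LP values of 16.5 and 8.86 and HP values of 9.75 and 21.5. It was the second most highly marked gene, shares its window with a TSS of Mgat4b, and its ratio was −0.76 in replicate 1 and 1.28 in replicate 2.

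The replicates differed in the size of the HP to LP ratio. In replicate 1 the median log2 ratio of the 41 genes was 0.34, beside 0.51 over all promoters, and 31 genes were above 0. In replicate 2 it was 1.52, beside 1.31, and all 41 were above 0. The ratio was larger in replicate 2 than in replicate 1 in 37 of the 41 genes, and in 83.6% of all promoters. The ratio of replicate 1 also varied with the level of the promoter. In the quartile of promoters with the highest mean level its median was 0.16 over all promoters and −0.12 over the 9 listed genes there, and 6 of these 9 had a replicate 1 ratio below 0, beside 38.0% of all promoters in that quartile. In the lowest quartile the medians were 0.75 over all promoters and 0.52 over the 8 listed genes. Of the V1 genes, 4 were in the highest quartile and 3 in the next, and their median ratio was 0.018 in replicate 1 and 1.65 in replicate 2. The part of the level in the ratios of single genes was not tested. Without HP replicate 2 the median of the listed genes was 0.46, beside 0.57 over all promoters, and limma called 0 of 41 higher, with 3 at a p under 0.05 before adjustment. Without HP replicate 1 the medians were 1.498 and 1.24, and 29 of 41 were called higher, beside 54.2% of all promoters. In both fits 1 HP library was left, the spread came from the 2 LP libraries, and the lone library was assumed to vary like them.

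**Figure D4:**
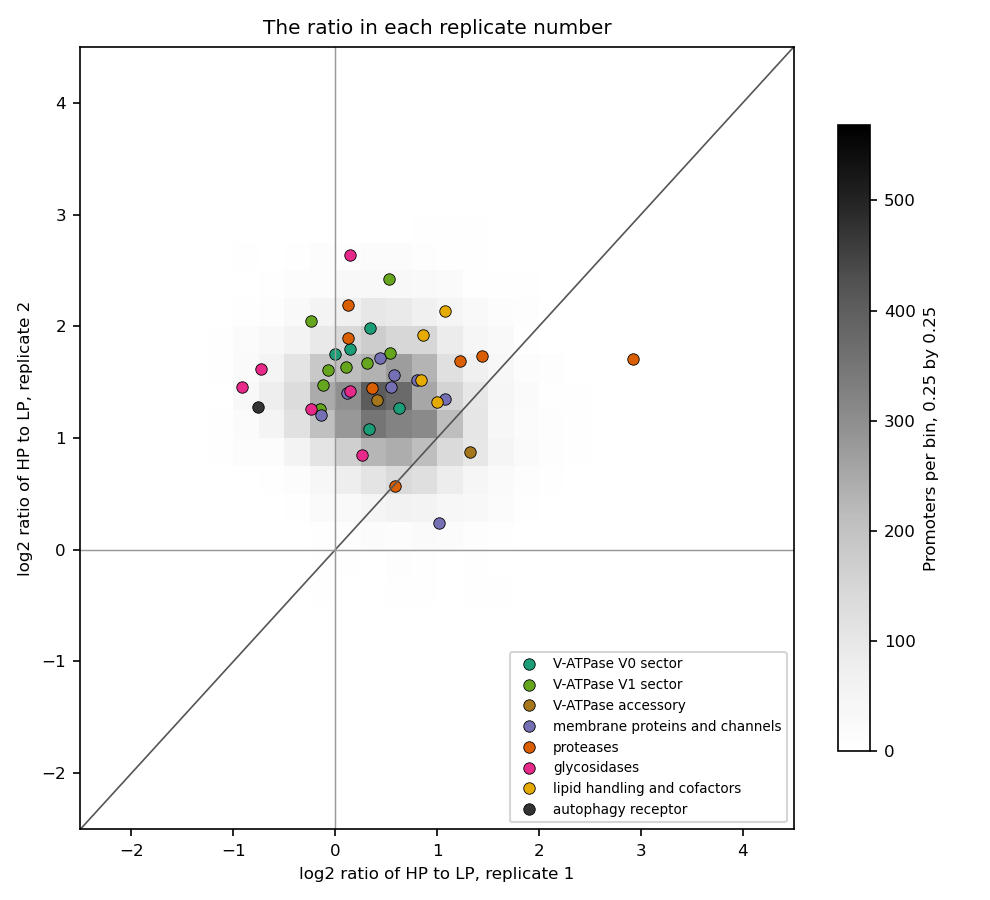
Log2 ratio of HP to LP in replicate 1 (horizontal) and replicate 2 (vertical), for all promoters (grey, count per bin of 0.25 by 0.25, 1 promoter outside the axes) and the 41 genes coloured by role, with a line where both ratios are equal. Of the 41 points 37 lie above the line and 10 lie left of 0 in replicate 1, and none lies below 0 in replicate 2, while after centring each library on its median 21 of the 41 mean ratios lie below 0.

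The fold enrichment of the same peaks over the local background was computed by the authors against the IgG library of the same number. These IgG libraries held 8701778 fragments for replicate 1 and 19358733 for replicate 2. In LP its median over the 41 genes was 13.8 and 15.004, beside 10.6 and 14.7 over all promoters. In HP it was 16.8 and 45.6, beside 14.95 and 39.1. Both HP values lay above both LP values in 20 of the 41 genes (48.8%), beside 43.0% of all promoters. These shares were lower than those of the scaled pileup, 70.7% and 73.8%. The width of the mark was taken as the bases under peaks, summed over the windows of all TSS of a gene. It therefore also depends on the number of TSS and of separate peaks. In LP its median was 755 and 1298 bp, beside 813 and 1238 bp over all promoters. In HP it was 1387 and 2163 bp, beside 1387 and 1837 bp. Both HP widths were above both LP widths in 28 of the 41 genes (68.3%), beside 56.4% of all promoters. Sqstm1 had the most covered bases, with 4629 and 4095 bp (LP), then 5519 and 9322 bp (HP). These were summed over 5 and 3 separate peaks in LP and 6 and 9 in HP, and a TSS of Mgat4b lies among them. At Ctsb the covered width was 1125 and 1298 bp (LP), then 3477 and 6961 bp (HP), with no overlap between the groups. It was summed over 3 peaks in each LP library and 5 in each HP library.

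Peaks were also collected over the gene bodies. Taking the highest peak of the promoter and the gene body together gave a value in all 4 lists for 42 genes, of which 39 had their highest peak at the promoter in every list. The median log2 ratio was 1.00, beside 0.88 over all genes, and 1 of 42 passed the adjusted threshold in limma, beside 1.44% of all genes. This was Lgmn with the same 4 values as at its promoter, so it is not a second call. Within 3 kb of a TSS the 4 lists together had 142 regions at the listed genes, of which 46 were called in all 4 lists and 4 (2.82%) in both HP lists and neither LP list, beside 4.92% over all genes. Away from the TSS there were 134 regions in 28 genes. Of these, 12 (8.96%) were called in both HP lists and neither LP list, 0 in both LP lists and neither HP list, and 4 in all lists. Of the 129 that were also away from the TSS of any other protein-coding gene, 11 (8.53%) were called in both HP lists and neither LP list, beside 4.42% of such regions over all genes. Without Atp6v1a the count among the 134 regions became 7 of 116 (6.03%). These 116 include regions near a TSS of another gene, so the 4.42% is not their background. The lists of LP replicates 1 and 2 called 20 and 33 of the 134 regions and those of HP replicates 1 and 2 called 55 and 77. Absence from a list means no more than a signal under its threshold, and the summits of the 12 regions had 6 to 43 fragments.

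Atp6v1a had the most such regions. Besides 1 region at its promoter, it held 5 intronic regions called in both HP lists and neither LP list, between chr16:44119182 and chr16:44126650, a stretch of 7469 bases that starts 13055 bases inside the gene. Over all 18 regions of the gene away from its TSS, LP replicates 1 and 2 called 0 and 4, and HP replicates 1 and 2 called 10 and 13. The stretch was bounded by regions chosen for their pattern, so its own counts partly follow from that choice. HP replicate 1 called 7 regions in this stretch, HP replicate 2 called 6, LP replicate 2 called 1 and LP replicate 1 called 0. The highest of them, chr16:44119182-44119880, had 17 fragments in HP replicate 1 and 43 in HP replicate 2, scaled pileups of 1.48 and 3.02. The promoter peak of the same gene was higher in each HP library and was called in all lists. The other 7 regions were in the exons of Atp6v1c1 and Lamp2 and in introns of Atp6v0e, Ctsd (near a TSS of another gene), Gusb, Hexa and Scarb2, with scaled pileups from 0.421 to 1.31. Of them, the one in Scarb2 had 15 and 16 fragments in HP. Regions outside the TSS windows that all 4 lists shared were in introns of Atp6v0a1, Ctsz, Glb1 and Hexa, and the region in Glb1 had LP values of 2.09 and 1.24 and HP values of 3.40 and 1.89. Of the 50 regions of listed genes in all 4 lists, 0 were called higher by limma over all such regions (4.01% of all were called), with the lowest adjusted p, 0.055, at the promoter of Npc2.

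**Figure D5:**
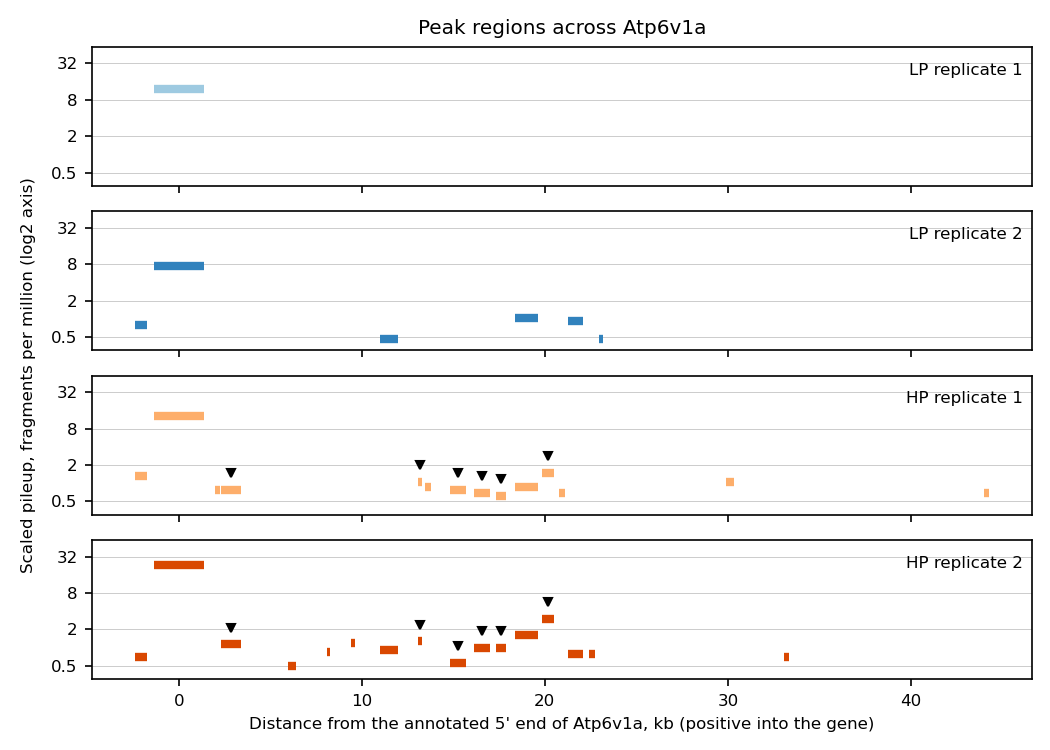
Peak regions across Atp6v1a in the 4 libraries, as the distance in kb from the annotated 5′ end (horizontal) and the scaled pileup in fragments per 1000000 (vertical, log2 axis). Triangles mark regions called in both HP lists and neither LP list, 5 of which are intronic, while the promoter region near 0 is called in all 4 libraries.

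Further genes of the same pathway, 74 in all, gave a background from related functions: the TFEB family and its nutrient-sensing regulators, other pump subunits, further hydrolases, transporters and sorting proteins. Of these, 59 had a promoter peak in all 4 lists, 13 in some and 2 in none. Their median log2 ratio was 0.86, or −0.12 after centring. In limma 0 of 59 passed the adjusted threshold in either direction, beside 0.770% of all promoters as higher. Before adjustment 17 of the 59 (all of them higher) had a p under 0.05, beside 30.9% of all promoters. The 3 highest ratios were at Tcirg1, Ctsh and Vps41. Tcirg1, the V0 subunit of osteoclasts, had LP values of 0.872 and 1.37 and HP values of 2.70 and 5.47 (1.82, adjusted p = 0.069 in limma). Ctsh, an aminopeptidase of the cathepsin family, had LP values of 0.436 and 1.498 and HP values of 1.83 and 4.14 (1.77), but its LP replicate 1 peak had its summit at −2633 bases from the TSS, unlike those of the other lists. Vps41, of the complex that fuses vesicles with lysosomes, had LP values of 0.785 and 2.61 and HP values of 2.79 and 8.14 (1.74). The 3 lowest were Fnip1 (0.19), Tmem192 (0.29) and Gnptab (0.51), all with a replicate 1 ratio below 0. Among the transcription factors of the family, Tfe3 had LP values of 1.05 and 1.89 and HP values of 3.05 and 6.31, and Tfeb had LP values of 3.84 and 2.996 and HP values of 7.66 and 8.42. Mitf had LP values of 1.83 and 2.28 and HP values of 3.22 and 4.07, and none of these 3 factors passed the adjusted threshold. The fourth member, Tfec, had 0.436 and 0.456 in LP and 0.435 in HP replicate 1. It had no peak in HP replicate 2 and was not tested. These values rested on 5, 7 and 5 fragments, with summits at −579, 3195 and 1340 bases from a TSS. The summits lay at different places, so these values do not compare HP with LP. Of the other pump subunits in the list, Atp6v0a2, Atp6v0a4, Atp6v0e2 and Atp6v1g2 had a promoter peak in all 4 lists, as Tcirg1 did, while Atp6v0d2, Atp6v1b1 and Atp6v1c2 had one in 1 list each, and Atp6v1e2 and Atp6v1g3 in no list. The genes with the CLEAR core had a median log2 ratio of 0.99 over the 8 listed genes, compared with 0.93 over the 26 listed genes with a window without it, and 0.84 over the 195 genes of the genome with the core and a peak in all 4 lists.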

How the data were processed

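H3K27ac ChIP seq peak lists of 2 LP and 2 HP libraries were used, grouped and numbered by their labels. According to the labels and the study's methods, the authors trimmed the reads with Trimmomatic, aligned them to mm10 with Bowtie2, and called narrow peaks in each library with MACS3 (3.0.0b1) against an IgG library, at a q cut-off of 0.05. The deposited pileup is the number of fragments over a peak's summit, without scaling in the file. The deposited fold enrichment is the ratio of that pileup to the local background. The deposited −log10 q states the significance of each peak and was used only as a stricter cut-off. Reads were not used here, so a promoter without a peak has no value.

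Pileups were scaled to a depth of 1000000 fragments, with the fragment totals that the file headers give. The value of a gene was the highest peak overlapping the 3 kb on either side of its TSS (GENCODE M21). Promoters called in all 4 lists were compared on the log2 scale, with no pseudocount, by limma 3.58.1 in R 4.3.3 with Benjamini-Hochberg adjustment at 0.05, and merged regions and gene spans likewise. The limma step was run on simulated promoters with equal and independent noise, with a pass criterion only where the noise was reduced. That is a check of the code and does not show how limma performs on these libraries. Counting error and depth limit low peaks, the lowest called summit being 5 or 6 fragments. With 2 against 2 libraries an exact two-sided permutation test cannot go below p = 0.333, so none was used for single genes. The labels name separate replicates without separate cultures, so that p-values measure only the spread between these samples, which may be technical. Same-numbered LP and HP libraries were treated as pairs in a fit with the replicate number as a block, because the labels speak of replicate sets started from equal DNA, and the correlation of their deviations over promoters was 0.045.

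The members and gene lists were chosen with earlier results of these data known. Every member could be named, and other pathway genes were named when they passed the threshold or had the 3 highest or 3 lowest ratios. Tfeb, Tfe3, Mitf, Tfec and the other pump subunits were named outside this rule, after their values were seen. Motifs were searched on both strands of RefSeq promoter windows (GRCm38.p6). Alternatives were other scalings, windows, TSS sets, peak cut-offs and peak summaries, a count of shared promoters once, the replicate block and leaving out each library; the restriction to regions shared by all lists was chosen after seeing the data.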

Additional observations from a re-analysis of the deposited data

How the results depend on the processing

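The direction of single promoters depended on the scaling. After centring each library on its median, the log2 ratio was below 0 at Atp6ap1 −0.10, Atp6v0a1 −0.028, Atp6v0b −0.28, Atp6v0d1 −0.0085, Atp6v0e −0.11, Atp6v1a −0.11, Atp6v1c1 −0.42, Atp6v1d −0.074, Atp6v1g1 −0.21, Atp6v1h −0.30, Ctsl −0.40, Ctsz −0.077, Fnip1 −0.79, Gaa −0.71, Glb1 −0.43, Gnptab −0.47, Hexa −0.53, Lamp1 −0.45, Mcoln1 −0.35, Naglu −0.19, Neu1 −0.46, Ostm1 −0.22, Sqstm1 −0.72 and Tmem192 −0.69. With quantile normalization it was below 0 at Atp6ap1 −0.17, Atp6v0a1 −0.079, Atp6v0b −0.19, Atp6v0e −0.10, Atp6v1c1 −0.19, Ctsl −0.50, Ctsz −0.046, Fnip1 −0.26, Gaa −0.47, Glb1 −0.51, Gnptab −0.45, Hexa −0.40, Lamp1 −0.12, Mcoln1 −0.42, Neu1 −0.50, Ostm1 −0.18, Sqstm1 −0.39 and Tmem192 −0.47. With the mean of the peaks in the window in place of the highest it was below 0 at Atp6v1d −0.0023, Fnip1 −0.59, Gaa −0.20, Hexa −0.43, Lamp1 −0.88, Mcoln1 −0.076, Sqstm1 −0.52 and Tmem192 −0.49. Leaving out 1 library turned the direction at 9 genes, with log2 ratios in the ranges Atp6v1c1 −0.034 to 1.14, Ctsl −0.018 to 1.17, Fnip1 −0.48 to 0.85, Gaa −0.62 to 1.16, Glb1 −0.16 to 1.27, Gnptab −0.18 to 1.203, Hexa −0.47 to 1.36, Sqstm1 −0.31 to 0.83 and Tmem192 −0.22 to 0.79. The median log2 ratio of the listed genes was −0.0085 after centring and 0.085 with quantile normalization, and from 0.34 to 1.52 with libraries left out. That of all promoters was −0.079 and −0.0049, and that of the other pathway genes −0.12 and −0.087 (0.45 to 1.36 with libraries left out).

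The number of listed genes called higher by limma, 1, was 0 after centring, with quantile normalization, with the mean of the peaks, at a −log10 q of at least 2 or 3 and in regions shared by all lists, and from 0 to 29 with libraries left out, the 29 without HP replicate 1. Where a library was left out, the lone library of that population was assumed to vary like the pair of the other. The number of promoters called higher, 80, was 4 after centring, 0 with the mean of the peaks, 49 and 7 at a −log10 q of at least 2 and 3, 0 with quantile normalization, 4 in shared regions, 25 when scaled by fragment length as well, 53 with the summit inside the window, 9 with a window of 1 kb, and from 3 to 5693 with libraries left out. The single promoter called lower became 0 with most of these settings (0 to 1 with libraries left out). Gene spans called higher were 11 after centring in place of 169 (0 to 5842 with libraries left out), and those called lower 109 in place of 2 (0 to 21). Merged regions called higher were 0 after centring in place of 485 (0 to 6940), and those called lower 0 to 2. Other pathway genes called higher were 0 to 39 with libraries left out, and regions of the listed genes in both HP lists and neither LP list, 16, were 21 to 101, since 1 list fewer had to hold or lack them. Apart from that, the cause was not tested.

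With the replicate number as a block, 27 promoters, 102 gene spans and 88 merged regions were called higher, 0 promoters were called lower, and the call at Lgmn was kept. Among single genes, 722 values kept their direction and their side of the threshold over all alternatives, 64 changed direction, 33 passed the threshold, all without HP replicate 1, and 6 lost it, all at Lgmn. Lgmn had no value at a −log10 q of at least 2 or 3 or in regions shared by all lists, because its LP replicate 1 peak was left out or lay elsewhere. With 5 or 6 fragments as the lowest summit, values near that level rest on few fragments.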
